A study of Oryzias latipes with 84 samples.

Results

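The 100 genes described here were selected on their level in the pituitary of male medaka, as those whose median was lower at each later age and dropped furthest. Of the 24364 entries of the count table, 24350 had an Ensembl medaka gene identifier and were not among the 13 genes whose annotation the study adjusted. Of these, 12864 had a median of at least 5 CPM (counts scaled to a total of 1000000 per library) in the youngest males, 1172 had a lower median at each of the 3 steps between the 4 male ages, and the 100 with the greatest drop of log2(CPM + 1) between the youngest and oldest males are the members. Since all 16 males were used for this choice, the male values are a description and carry no test. The 68 females were not used, and the tests below are on them.

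Each library came from the pituitary of a single medaka (Oryzias latipes), a small egg-laying freshwater fish. All 84 fish belonged to the d-rR lhb:GFP strain, whose transgene puts a green fluorescent protein under the lhb promoter and so marks gonadotropes (lhb is the gene of the β-subunit of luteinizing hormone, Lh). No fish was treated, and there was no fish without the transgene. The males were 38, 57, 70 and 134 days post fertilization (dpf), with 4 fish at each age, and measured 12 to 12.5, 16 to 18.5, 17.5 to 18.5 and 22 to 28 mm at these ages. The females fell into groups of 32 to 35 (n = 4), 37 to 39 (n = 4), 44 to 49 (n = 8), 53 to 59 (n = 9), 64 to 74 (n = 10), 79 to 92 (n = 10), 96 to 111 (n = 11), 131 to 179 (n = 6), 249 to 277 (n = 3) and 375 dpf (n = 3). Tank mates came from eggs collected on 1 day, so that differences between ages and between egg collections cannot be told apart where only ages are compared.

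The teleost pituitary holds separate endocrine cell types for prolactin, growth hormone, thyroid-stimulating hormone, the gonadotropins and the other peptide hormones, together with non-endocrine cells and the blood that passes through the gland. Around puberty the gonadotropes expand, and lhb becomes one of the most abundant transcripts. Because the hormone genes take a large share of all transcripts, the share left for every other gene depends on them.

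The libraries held 2424546 to 9348785 counts (median 6493890). All 8 hormone genes used as a check of the tissue had counts in every library, and together they made up 1.48% to 38.1% of the counts, with a median of 24.8%. Female 7 was at the lowest of these values. CD74, a gene of antigen-presenting cells, was at 177 to 6436 CPM (median 377), with male 135 of 70 dpf the highest. Among the females, CD74 was highest in female 7, at 2203 CPM. The globin gene hbbe2, a red blood cell marker, was at 454 to 57607 CPM (median 4661). The RNA integrity number (RIN) was given for 73 of the fish and ranged from 6.8 to 10, with 7.1 in male 140 as the lowest of the males.

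The members covered a wide range of levels. Their median in the males of 38 dpf was between 6.26 and 6694 CPM, with 45.0 CPM for the middle of the list. In these fish 92 members were over 10 CPM, 27 over 100 CPM and 7 over 1000 CPM. By 134 dpf the median of 12 members was under 1 CPM. Over the list, the median of the members' levels was 5.45, 3.97, 3.20 and 2.56 log2(CPM + 1) at 38, 57, 70 and 134 dpf. The step between 38 and 57 dpf was the greatest for 65 members, that between 57 and 70 dpf for 16, and that between 70 and 134 dpf for 19. The 38 minus 134 dpf difference was 5.95 log2 units for the first member, 2.55 for the middle of the list and 1.79 for the last member, and 1.75 for the first gene left out. As falling at each step was the criterion, the 9.11% of the 12864 genes that met it is the pool from which the list was drawn. In whole pituitaries, a smaller share of the cells that express these genes and less RNA per cell cannot be told apart.

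**Figure D1:**
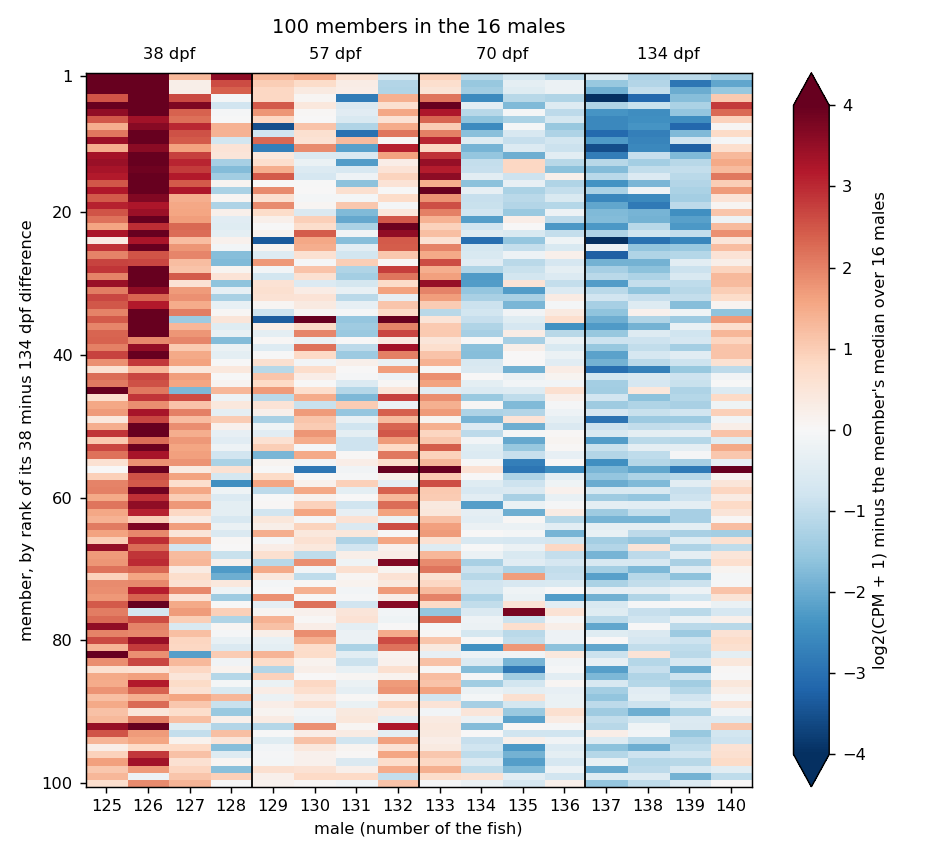
Level of the 100 members (rows, by rank of their drop between the youngest and oldest males) in each of the 16 males (columns, grouped by age). Colour is log2(CPM + 1) minus the member's own median over the 16 males and is clipped at the ends of the scale. Male 128 is pale among the males of 38 dpf, and males 133 and 140 stand out as high among those of 70 and 134 dpf.

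The files and the reference table do not pair the members' identifiers with gene names, and most members are therefore given by rank only. The member with the greatest drop was ENSORLG00000025271. It was at 364, 171, 5.49 and 31.05 CPM in males 125 to 128 of 38 dpf and at 5.76, 6.52, 3.11 and 0.620 CPM in males 129 to 132 of 57 dpf. It was at 4.17, 0.237, 0.634 and 0.263 CPM in males 133 to 136 of 70 dpf and at 0.732, 0.142, 0.266 and 0 CPM in males 137 to 140 of 134 dpf. All males of 134 dpf were thus below all males of 38 dpf, and the median of 70 dpf was already under 1 CPM.

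The most abundant member in the youngest males was ENSORLG00000024993, of rank 10. It was at 8851, 13741, 4536 and 489 CPM in males 125 to 128, and at 4037, 1236, 1980 and 854 CPM in males 129 to 132. Males 133 to 136 were at 6829, 587, 432 and 494 CPM, and males 137 to 140 at 170, 130, 474 and 789 CPM. The groups overlapped, since male 128 lay below the lowest male of 57 dpf and within the range of the males of 134 dpf, while male 133 had more than males 127 and 128.

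This uneven pattern among fish of the same age was common to most members. At 38 dpf, male 126 was the highest of the 4 fish for 82 members and male 128 the lowest for 85, and 72 members were lower in male 128 than the median of 57 dpf. At 70 dpf, male 133 was the highest for 86 members, and 79 members were higher in it than the median of 57 dpf. At 134 dpf, male 140, the shortest of its age at 22 mm and the one with the RIN of 7.1, was the highest for 86 members and above the median of 70 dpf for 79. All males of 57 dpf were below all males of 38 dpf for 2 members (2.81% of the 12864 genes), and at the later steps, 70 below 57 dpf and 134 below 70 dpf, this held for 0 members (1.97% and 2.0% of the genes). Between the ends of the series, all males of 134 dpf were below all males of 38 dpf for 17 of the 100 members, against 4.87% of the 12864 genes. Without male 140 this held for 62 members, without male 128 for 85, and without both for 92. The counts over the 12864 genes rose as well, to 1145, 2193 and 2999, against 627 with all fish. Leaving out a fish can only raise these counts, and males 140 and 128 were those that stood out at their ages. An edgeR fit of males of 134 dpf against males of 38 dpf called 30 of the 98 members that passed its filter lower, beside 1.73% of all genes tested. It is the contrast on which the members were chosen, and nothing is read from it. Without male 138 and without male 139 it called 0 (77 and 75 had an unadjusted p under 0.05, while 85 were called by DESeq2 with all fish), without male 140 it called 8, without male 137 it called 15, without male 126 it called 19 and without male 128 it called 71. Calls over all genes moved too: the share called lower was 0% without male 138 or male 139, 4.85% without male 128 and 6.52% with DESeq2. It was 0.0653% without male 140, 1.04% without male 137 and 1.76% without male 126. The members' median change was -2.55, -2.61 and -3.05 log2 units without males 138, 139 and 128, against -2.70 with all fish.

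The summed counts of the members also differed between single fish, but not always in the order of most members. They made up 0.293% to 0.954% of the counts in the males of 134 dpf, against 7.55%, 6.52%, 1.72% and 0.681% in males 125 to 128 of 38 dpf. Male 125 thus had the largest share, whereas male 126 was the highest for 82 members. A sum follows the most abundant members, and in male 125 the member of rank 82 was at 24860 CPM. In these young males the hormone genes made up 12.9%, 5.60%, 22.6% and 36.7% of the counts, so that the fish with the fewest counts in the members had the most in the hormone genes. At 57 dpf they were at 28.4% to 37.6% and at 134 dpf at 27.0% to 33.3%. At 70 dpf, male 135 had 9.00% of its counts in hormone genes, and its members were at the lowest level of that age. The same male had the highest CD74 level of all fish (6436 CPM). Whether the hormone share accounts for the differences between fish was not tested. When the hormone genes were left out of the totals, the same rule chose 91 of the 100 members. The pool of genes with a lower median at each step was then smaller, at 695 against 1172 with the hormone genes included. As the same males and the same rule were used, nothing on a cause is read from these numbers.

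Some members had the order of the globins in the youngest males and not that of most members. In the males of 38 dpf, 58 members had the order of male 126, 125, 127 and 128 (high to low), whereas hbbe2 was at 55296, 7283, 621 and 5655 CPM in males 125 to 128. Its order was shared by 8 members, those of rank 1, 2, 3, 45, 67, 78, 82 and 93. How many of the 12864 genes had either order was not counted, so that nothing is read from these 2 numbers of members. Rank 82 (ENSORLG00000027445) is labelled hemoglobin by the study, and rank 45 (ENSORLG00000027969) is labelled si:ch211-103n10.5 in its red blood cell rows. Both were picked out after their values were seen. Hemoglobin was at 704, 1856, 603 and 964 CPM in males 137 to 140 of 134 dpf, against 24860, 4554, 273 and 2579 CPM in males 125 to 128 of 38 dpf. The level of si:ch211-103n10.5 was 142, 507, 157 and 256 CPM in the same old males, against 9277, 1612, 105 and 939 CPM in the young ones. For both genes, male 127 of 38 dpf was below every male of 134 dpf, so that the groups overlapped. The globin hbbe2 itself also had a lower median at each step, with a difference of 1.63 log2 units, and was 115th in the order from which the first 100 were taken. In the 68 females, Spearman's correlation with hbbe2 was 0.964 for hemoglobin, 0.939 for si:ch211-103n10.5, 0.838 for rank 78, 0.669 for rank 67, 0.592 for rank 2 and 0.567 for rank 3. Only these 6 of the 100 members were over 0.5 (0.521% of the 12864 genes were), and the median of the list was 0.14. Ranks 1 and 93, which also had the order of hbbe2 in the young males, were at 0.443 and 0.278.

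In the females the members were also highest in the youngest fish, but not every later group was lower than the one before it. The median of the members' median levels was 5.33 log2(CPM + 1) at 32 to 35 dpf, 4.13 at 37 to 39, 4.36 at 44 to 49, 3.84 at 53 to 59, 4.00 at 64 to 74, 3.52 at 79 to 92, 3.18 at 96 to 111, 3.08 at 131 to 179, 3.22 at 249 to 277 and 3.00 at 375 dpf. The first step, within the first 39 days, was the greatest. There 91 members had a lower median in the later group, with a median difference of -1.01, as against 63.3% of the 12864 genes with a median difference of -0.13. At 32 to 35 dpf the RIN was 6.8 to 9.3 (median 7.9, given for 3 fish). At 37 to 39 dpf it was 7.7 to 9.1 (median 8.65). The RIN was not taken into account in these medians. At 44 to 49 against 37 to 39 dpf 48 members were lower (34.2% of the genes), with a median difference of 0.08 (0.10 over the genes). At 64 to 74 against 53 to 59 dpf 31 were lower (22.2% of the genes), with a median difference of 0.17 (0.15 over the genes). Both of these rises were close to the shift of all genes. At 249 to 277 against 131 to 179 dpf 29 were lower (47.5% of the genes), with a median difference of 0.24 (0.01 over the genes). Females of 375 dpf had a lower median than those of 32 to 35 dpf for 97 members, with a median difference of -2.12 log2 units, whereas 49.8% of the 12864 genes were lower and their median difference was 0.00. Females of 131 to 179 dpf had a lower median than those of 37 to 39 dpf for 92 members, where 32.0% of the 12864 genes were lower.

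The level of the list in a single fish can be given as the median, over the members, of log2(CPM + 1) minus the member's median in the 68 females. In males this level was -0.18 to 3.19 at 38 dpf, -0.31 to 1.16 at 57 dpf, -0.84 to 1.27 at 70 dpf and -1.39 to 0.60 at 134 dpf. In females it was 0.58 to 1.76 at 32 to 35 dpf, -0.33 to 1.13 at 37 to 39 dpf, -0.98 to -0.46 at 131 to 179 dpf and -0.72 to -0.48 at 375 dpf. From 131 dpf no female lay above -0.18, whereas male 140 was at 0.60.

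**Figure D2:**
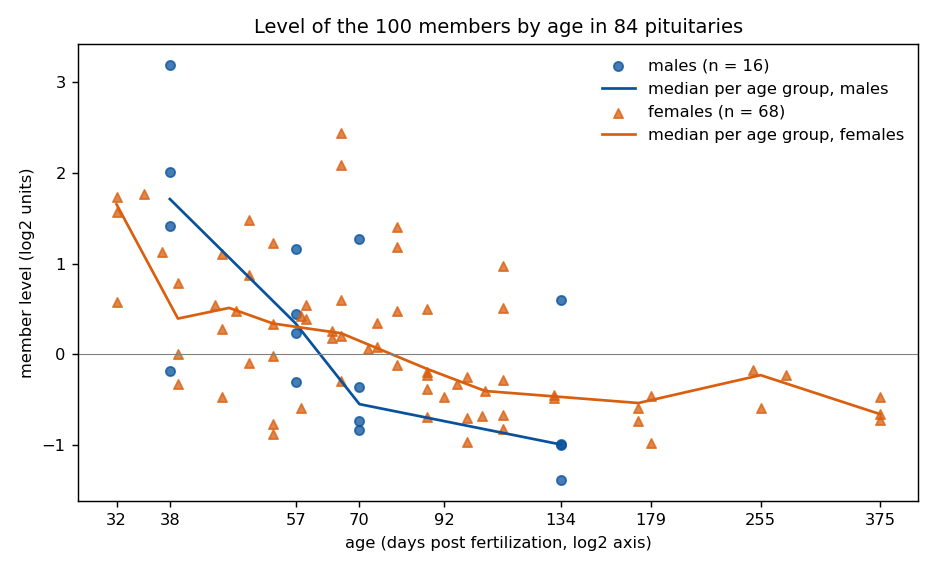
Level of the members (vertical axis, median over the 100 members of log2(CPM + 1) minus the member's median in 68 females) against age in days post fertilization (horizontal axis, log2 scale). Points are single fish, and lines join the medians of the age groups. Females of 131 to 179 dpf lie between -0.98 and -0.46, and the youngest females, of 32 to 35 dpf, between 0.58 and 1.76.

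The ends of the male series have counterparts of similar age in 6 females of 131 to 179 dpf and 4 females of 37 to 39 dpf. The older females measured 21 to 23.5 mm and the young ones 11 to 12.5 mm. The RIN was 8 to 9.8 (median 9.7, given for 5 fish) in the older and 7.7 to 9.1 (median 8.65) in the young females. Neither length nor RIN was in this fit. Of the 100 members, 91 passed the filter on low counts in this comparison, and 28 of them fell (edgeR, adjusted p under 0.05 over the 19866 genes tested), whereas 1.44% of all genes tested were called lower. No member rose, and at an unadjusted p under 0.05 as well as with DESeq2 the number of members called higher was 0. The fitted change was negative for 85 of the 91 members, with a median of -1.72 log2 units, and the median over all genes tested was 0.01. A member could pass the filter through the young fish alone, and these counts leave out the 9 members that did not pass. DESeq2 called 51 members lower, beside 3.15% of all genes tested. The count depended on single fish: it was 9 without female 104, 13 without female 114 or without female 120, 14 without female 121, 15 without female 14, and 47 without female 103, the fish of the young group with the most hbbe2 (43582 CPM). The share of all genes called lower moved in the same direction, between 0.238% without female 104 and 3.63% without female 103, while the members' median change was -1.65 and -1.69 log2 units. When the 4 females of 32 to 35 dpf, chosen after seeing the data, were added to the young group, 64 of 99 members were lower. The share of all genes called lower was then 2.91%, against 1.44% without them.

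In these females ENSORLG00000025271 was at 0 to 1.61 CPM (median 0.425) at 131 to 179 dpf, against 259, 63.6, 23.2 and 1.72 CPM at 37 to 39 dpf. The groups did not overlap, and the gene did not pass the filter on low counts. For ENSORLG00000024993 the older females were at 10.7 to 530 CPM (median 213) and those of 37 to 39 dpf at 6257, 4563, 2119 and 658 CPM. Again no older fish reached the lowest young one, and the change was -3.99 ± 1.06 log2 units (SE, edgeR, adjusted p = 0.106; 0.00224 with DESeq2).

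The members named for their positive change did not pass the test. ENSORLG00000025954, of rank 39, was at 2.04 to 133 CPM (median 6.28) in the females of 131 to 179 dpf, against 3.58, 6.92, 8.90 and 11.9 CPM in those of 37 to 39 dpf. Its change of 1.41 ± 1.31 log2 units (SE, edgeR, adjusted p = 0.640) rested on female 119, at 133 CPM, and without this fish it was -0.94. ENSORLG00000024828, of rank 34, was at 0.817 to 4.50 CPM (median 3.61) in the older females, against 0.131, 1.89, 2.23 and 2.29 CPM in the young ones, a change of 0.80 ± 0.63 (SE, edgeR, adjusted p = 0.550). Its level at 32 to 35 dpf was higher than in either group, at 5.08 to 14.3 CPM, and with these fish in the young group the change was -0.68. In the males, from which the members were chosen, ENSORLG00000025954 had medians of 20.3, 17.2, 5.43 and 2.14 CPM and ENSORLG00000024828 of 11.3, 2.09, 1.29 and 0.866 CPM at 38, 57, 70 and 134 dpf.

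**Figure D3:**
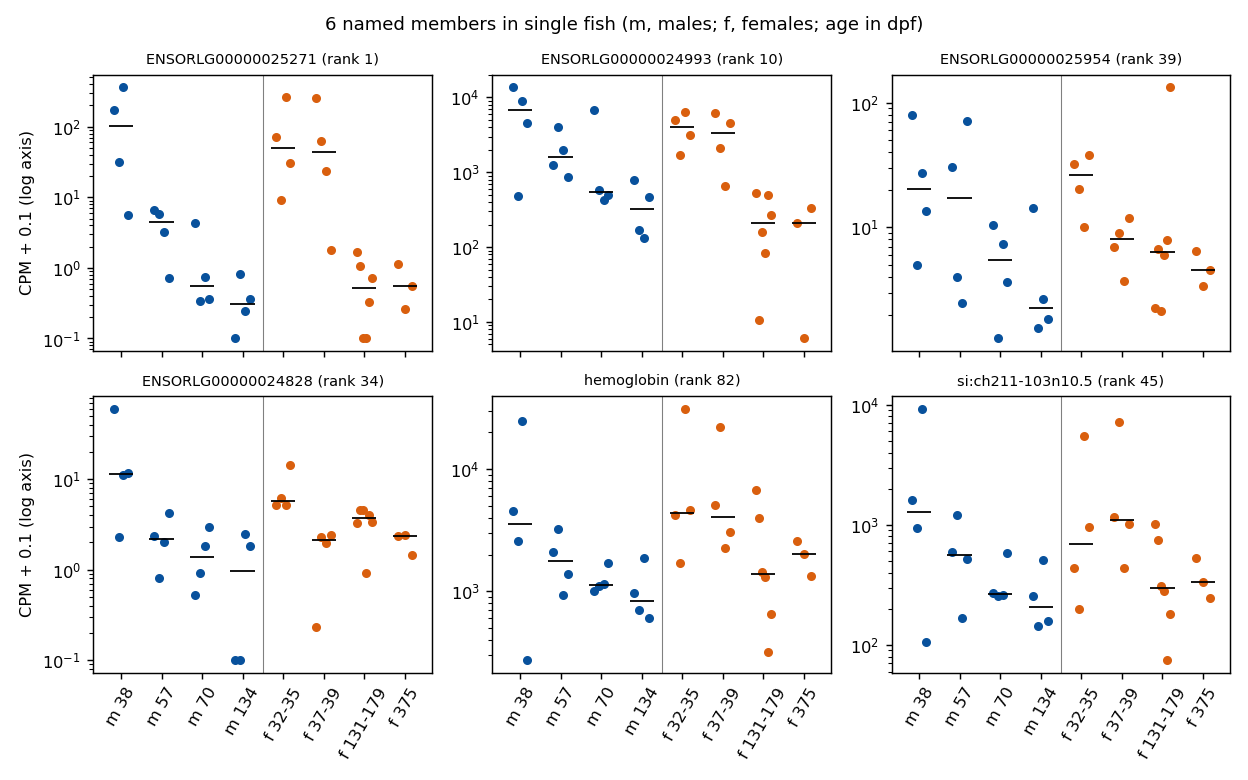
CPM (plus 0.1, log axis) of the 6 members named in the text in single males (blue) and in 4 groups of females (orange), with age in dpf on the horizontal axis and a bar at each median. ENSORLG00000025271 lies at or below 0.732 CPM in the males of 134 dpf and at or above 5.49 CPM in those of 38 dpf, and hemoglobin and si:ch211-103n10.5 overlap between ages.

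Over all 68 females, the level of 86 of the 100 members fell with age (edgeR, slope on log2 age, adjusted p under 0.05), as against 16.0% of the 21161 genes tested. No member rose, none had a positive slope at an unadjusted p under 0.05, and DESeq2 likewise called 86 lower and 0 higher. The slope was negative for 98 members, and its median was -0.69 log2 units per doubling of age (median SE 0.16), compared with 0.01 over all genes tested. The steepest was that of ENSORLG00000025271, at -2.79 ± 0.33 (SE, adjusted p = 1.33e-09). ENSORLG00000024993 fell by 1.12 ± 0.24 per doubling (SE, edgeR, adjusted p = 0.000368). Both members labelled as blood genes fell as well, hemoglobin by 0.66 ± 0.16 (SE, adjusted p = 0.00104) and si:ch211-103n10.5 by 0.77 ± 0.16 (SE, adjusted p = 0.000267), and hbbe2 had a slope of -0.60 ± 0.15 (SE, adjusted p = 0.0019). With the level of hbbe2 in the fit, 84 members were lower (17.2% of all genes tested), and with the share of hormone genes in the fit 91 (15.6%). Both of these fits were chosen after seeing the data. With the RIN in the fit, which leaves 57 females, 57 members were lower (5.04% of all genes tested), with a median slope of -0.60. Hemoglobin and si:ch211-103n10.5 did not pass the test with the RIN in the fit (adjusted p = 0.16 and 0.0726).

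Older females were also longer, with 26 to 29 mm at 375 dpf against 9.5 to 11 mm at 32 to 35 dpf. With length in the same fit, no member passed the test for age (edgeR, 11 members lower and 13 higher at an unadjusted p under 0.05), where 0.181% of the 21532 genes tested were lower. The slopes on age were then negative for 50 members and positive for 50, with a median of 0.00, while their median SE was 0.29 and thus larger than for age alone. No other tool was run with both terms over the 68 females. In the same 68 females, 47 members fell with body length at a given age, as against 4.72% of all genes tested (chosen after seeing the data).

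**Figure D4:**
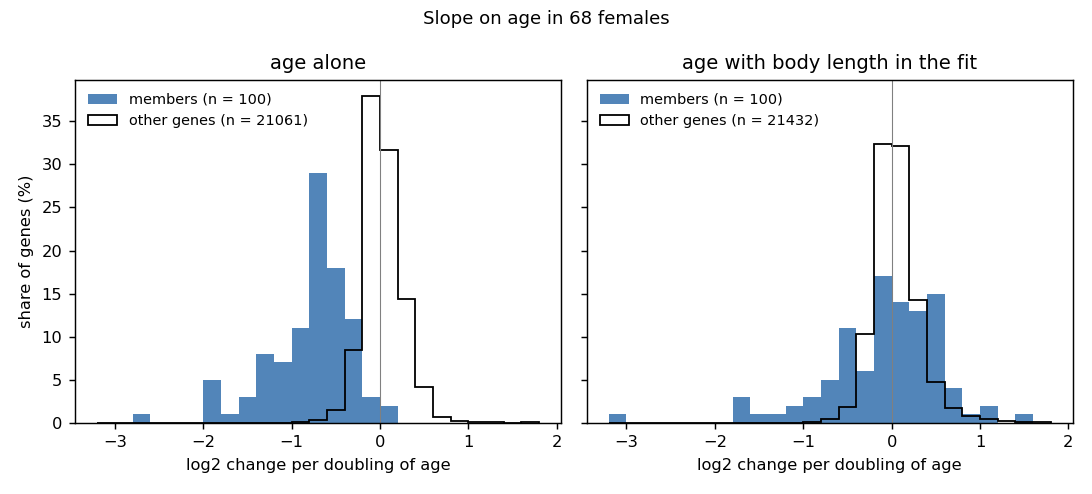
Slopes on age in 68 females, in log2 units per doubling of age (horizontal axis), for the members (blue bars) and for the other genes tested (black outline), as shares of each set in percent (vertical axis). The members' median is -0.69 with age alone (left) and 0.00 with body length in the same fit (right).

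Between 64 and 111 dpf the lengths of the age groups overlapped widely, with 10 to 20 mm at 64 to 74 dpf, 10.5 to 18.5 mm at 79 to 92 dpf and 10.5 to 19 mm at 96 to 111 dpf, and length was tested in these 31 females with age in the fit. Of the 100 members, 57 fell with body length (edgeR, adjusted p under 0.05 over 20923 genes, DESeq2 61), as against 6.75% of all genes tested, and 98 had a negative slope. The median slope was -0.22 log2 units per mm (median SE 0.06), with 0.00 over all genes tested. No member rose, also at an unadjusted p under 0.05 and with DESeq2. Without females 26 and 27, both of 66 dpf, the count was 36 (2.83% of all genes tested) and the median slope -0.17, and without all females of 66 dpf they were 27 (2.82%) and -0.17. With the hormone share in the fit, 31 members were lower (1.37% of all genes tested) at a median slope of -0.21, and 95 slopes were negative. The count was 47 with the RIN (1.93% of all genes tested, median slope -0.26), 47 without female 7 (3.51%, -0.22) and 59 with hbbe2 (5.997%, -0.22). The fits without females 26 and 27, without those of 66 dpf, with the hormone share and with hbbe2 were chosen after seeing the data.

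Both the test for age in the 68 females and that for length were passed by 49 members, the test for age alone by 37, that for length alone by 8, and neither by 6. Of the 28 members lower at 131 to 179 dpf than at 37 to 39 dpf, 20 passed all 3 female tests. The tests share fish, as the fish of the other tests are among the 68 females. Passing several of them is therefore not independent, and these joint counts were not made over all genes. ENSORLG00000025954 and ENSORLG00000024828 were among the 8 that fell with length without passing the test for age. ENSORLG00000025954 fell by 0.22 ± 0.05 log2 units per mm (SE, edgeR, adjusted p = 0.0033), and ENSORLG00000024828 by 0.34 ± 0.07 (SE, adjusted p = 0.00155). Without females 26 and 27 the slope of ENSORLG00000025954 was -0.17 (adjusted p = 0.169), and without all females of 66 dpf that of ENSORLG00000024828 was -0.27 (adjusted p = 0.0752). ENSORLG00000025271 fell by 0.43 ± 0.12 per mm (SE, adjusted p = 0.0215), and without female 7 the slope was -0.43 (adjusted p = 0.0665). In contrast, hemoglobin and si:ch211-103n10.5 had slopes of 0.00 ± 0.07 (SE, adjusted p = 0.983) and 0.03 ± 0.07 (SE, adjusted p = 0.888).

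The relation with length can also be read within fish of 1 age. At 66 dpf the level of the list was 2.44 and 2.08 in the females of 10 and 11 mm, 0.60 in that of 15.5 mm, and 0.20 and -0.29 in those of 19.5 and 20 mm. At 79 dpf it was 1.41 in female 7 (10.5 mm), -0.12 at 14 mm, 1.19 at 16 mm and 0.48 at 17 mm, with no such order among the longer fish. At 111 dpf the shortest female, 67 (10.5 mm), was at -0.29, below those of 13 mm (0.97) and 15 mm (0.51) and above those of 18 mm (-0.83) and 19 mm (-0.68). Slopes on length within an age came from 4 fish at 79 dpf and 5 fish each at 66, 87 and 111 dpf. They were negative for 91 members at 66 dpf, 70 at 79 dpf, 93 at 87 dpf and 82 at 111 dpf. Of the 12864 genes, 64.3%, 56.7%, 54.9% and 47.7% had a negative slope at these ages. The members' median slope was -0.26, -0.13, -0.36 and -0.12 log2 units per mm. At 87 dpf the fish measured only 16 to 18.5 mm. As the members varied together in these few fish, they are not separate observations. The hormone genes made up 9.06% and 13.9% of the counts in females 26 and 27, and 1.48% in female 7, against 24.4% to 26.5% in the longer females of 66 dpf, whereas in female 67 they made up 38.1%. In the fit with the hormone share given above, the members' median slope on length was -0.21, against -0.22 without this term. That fit called 31 members lower (1.37% of all genes tested), against 57 (6.75%) without the term. The cause was not tested.

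**Figure D5:**
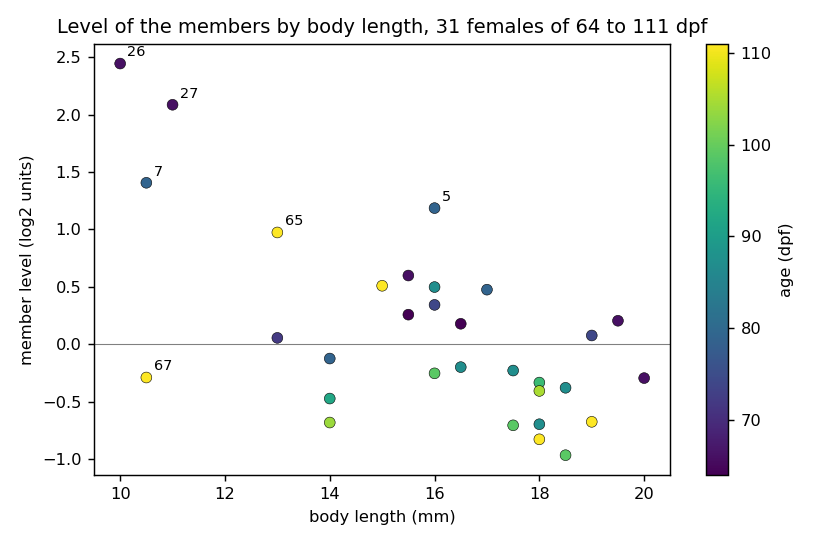
Level of the members (vertical axis, log2 units relative to the median of the 68 females) against body length in mm (horizontal axis) in 31 females of 64 to 111 dpf, coloured by age. Single fish named in the text are numbered, and females 26, 27 and 7 are short with levels of 2.44, 2.08 and 1.41, while female 67 is equally short with -0.29.

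Among the females the members varied together. Spearman's correlation between pairs of members over the 68 females had a median of 0.502 (quartiles 0.34 and 0.648 over 4950 pairs), and 96.9% of the pairs were positive. Over all pairs of the 12864 genes the median was 0.105. These values share the age and size of the fish and the total of each library. With lhb all 100 members had a negative correlation in the females, with a median of -0.47 (-0.05 over the 12864 genes) and 44 members under -0.5 (2.68% of the genes). The level of lhb itself changed by 4.26 ± 0.58 log2 units at 131 to 179 against 37 to 39 dpf (SE, edgeR, adjusted p = 0.00384). With gh and prl, the genes of growth hormone and prolactin, the median correlation of the members was -0.05 and -0.01 (-0.15 and -0.21 over the 12864 genes). With pomca, the precursor gene of adrenocorticotropic hormone, it was 0.105 (-0.12 over the genes), and with CD74 it was -0.30 (-0.01 over the genes).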

How the data were processed

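Bulk RNA-seq of single pituitaries was made with the Smart-SEQ HT kit, which keeps no strand. The authors deposited raw counts per gene, from alignments to the Hd-rR genome of Ensembl release 94 (annotation adjusted, GFP cassette added). According to the submitters' notes, STAR 2.7.6a, HTSeq 0.11.2 and SAMtools 1.10 were used. How HTSeq was set for these libraries is not given in the sources used here. Reads of overlapping or antisense genes may therefore be mixed. Near-identical gene copies may share reads. The table had 0 unnamed entries, 0 identical libraries and 0 columns outside the labelled fish.

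CPM were computed from the totals per library. For the tests, edgeR 4.0.16 (R 4.3.3) was run with TMM scaling, the default expression filter and a robust quasi-likelihood model, and p-values were adjusted after Benjamini and Hochberg over all genes tested (threshold 0.05). DESeq2 1.42.0 served as an alternative. Standard errors were derived from the F statistic. Each test was run on simulated counts with known changes. These held no outlying fish, so that the dependence on single fish was not covered. Tables and plots used Python 3.11.15, numpy 2.4.6, pandas 2.3.3 and matplotlib 3.10.9.

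The members, lists and tests were chosen with earlier results of these data known. As the reference table (26845 genes) paired 0 identifiers of the count table with a symbol, no gene list by symbol could be used, no sequences are given, and by rule only 4 members are named by identifier: the greatest male drop, the highest level at 38 dpf, and the 2 largest positive changes in females of 131 to 179 against 37 to 39 dpf, regardless of p since none passed. The 2 members labelled as blood genes were added later. Identifiers of hbbe2 and CD74 were taken from earlier work on this series. Each fish is 1 replicate. No fit had a term for tank or egg collection, and fish that shared them were treated as independent. The p-values therefore measure spread between fish and not between egg collections. Alternatives were other scaling, no filter, the hormone genes left out, single fish left out, and other covariates.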

Additional observations from a re-analysis of the deposited data

Results flagged for a closer look

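Single fish stood far from the others of their group in 9 of 46 groups and measures examined. The limit used flags about 1 in 20 where values are independent and normally distributed. Here the same fish and related measures recur and CPM are not on a log scale, so that this rate does not apply. In 70 dpf males, male 133 was apart for the members' share of counts (3.48%, next 0.654%), for ENSORLG00000025271 (4.17 CPM, next 0.634) and for ENSORLG00000024993 (6829 CPM, next 587). Its hormone genes made up 33.3% of its counts. Male 140 was apart among the 134 dpf males for ENSORLG00000025954 (14.3 CPM, next 2.55). Among the 38 dpf males, male 126 was apart for ENSORLG00000024828 (60.1 CPM, next 11.7) and male 125 for si:ch211-103n10.5 (9277 CPM, next 1612). Male 136 of 70 dpf was apart for si:ch211-103n10.5 (584 CPM, next 272). Among the females of 32 to 35 dpf, female 110 had a low level of the list (0.58, next 1.57) and the most hbbe2 of all fish (57607 CPM). The share of counts in the members was nevertheless the highest of all females in this fish, at 6.75%. Among those of 131 to 179 dpf, female 112 had the highest share of counts in the members (1.196%, next 0.593%), and it also had the most hbbe2 of its group (13094 CPM).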

How the results depend on the processing

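No paired analysis was possible because fish numbers do not pair animals across ages. The rule kept 97 members with a pseudocount of 0.5 and 73 with means in place of medians, and without single males 74 to 91. In females of 131 to 179 against 37 to 39 dpf, leaving out 1 fish gave 9 to 47 members lower. DESeq2 gave 51 (3.15% of all genes tested), and edgeR with females of 32 to 35 dpf added gave 64 (2.91%). In males of 134 against 38 dpf, the contrast that chose the members, the counts were 0 to 71 and 85, and nothing is read from them. The count for age was 0 with body length and 57 with the RIN in the fit. That for length was 31 with the hormone share, 36 without females 26 and 27, and 27 without females of 66 dpf, in fits chosen after seeing the data. The cause was not tested. For age with body length in the fit, the slopes were negative for 50 members and positive for 50. Of the named genes, directions reversed for ENSORLG00000025954 to -0.94 without female 119 (up to 1.77 without other single fish) and to 0.21 for age with body length, ENSORLG00000024828 to -0.68 with younger females added and to 1.09 for age with body length, and the slope on length of hemoglobin to -0.014 with the RIN, -0.0061 in all females, -0.036 without females 26 and 27 and -0.057 without those of 66 dpf, and of si:ch211-103n10.5 to -0.0017 and -0.040 in these last fits. None of these passed the test. Other scaling, no filter and leaving out the hormone genes kept every count of members lower within 1.5 times. With 4 young females, the count of called members in that comparison depends on single fish.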
